A study of Mus musculus with 24 samples.

Results

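The respiratory chain and ATP synthase subunits were followed in the cerebellum of mice lacking Derlin-1 or Derlin-2 in the central nervous system. Members were all genes whose symbol, taken from the probe's transcript, starts with Ndufa, Ndufb, Ndufc, Ndufs, Ndufv, Uqcr, Atp5 or any of the Cox families from Cox4 to Cox8, plus Sdha, Sdhb, Sdhc and Sdhd. Assembly factors starting with Ndufaf were left out. The rule found 84 members among 22911 symbols with a probe, and each was read from its brightest probe. Of the 84 members 83 were tested, because Cox8c, a testis isoform of cytochrome c oxidase, was well above background on 1 of 24 arrays and no group had it on both arrays. Of the rest, 82 were well above background on all 24 arrays, and Ndufa8 on 23, with no value on the array Derlin-2 KO 4PBA 2, where its spot was treated as missing. Cox5b, Ndufb1, Ndufb4b and Ndufb4c had no matched probe, and none of the 13 subunits encoded in mitochondrial DNA had one, so every value below concerns nuclear transcripts.

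Total RNA of 24 cerebella samples was hybridised to single-colour Agilent arrays in 12 groups of 2 arrays. The Derlin-1 KO (knockout) and Derlin-2 KO mice were C57BL/6 mice in which Cre recombinase, expressed from the nestin promoter, removed floxed Derlin-1 or Derlin-2, and the controls of each line were the corresponding flox/flox mice. The nestin promoter is active in neural precursors, so the deletion is not restricted to a cell type of the cerebellum. Mice were killed at postnatal day 28. 4-phenylbutyrate (4PBA), a chemical chaperone, was given intraperitoneally at 200 mg/kg every day between days 14 and 28, and water was the vehicle. The Derlin-1 line was measured in a numbered series (control vehicle, KO vehicle, control 4PBA, KO 4PBA) and again in a lettered series (control, KO, control 4PBA, KO 4PBA). The lettered arrays without 4PBA name no injection and are called untreated here. The Derlin-2 line had control vehicle, KO vehicle, control 4PBA and KO 4PBA arrays. The labels do not say whether the arrays of a group are separate mice, so p-values measure only the spread between these arrays. Each series lay on a slide of its own, and the lettered slide was scanned on another day. Within every slide genotype and treatment went with fixed columns and rows, so slide position and group cannot be told apart.

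The respiratory chain passes electrons from NADH through complex I, or from succinate through complex II, to complex III, cytochrome c and complex IV, where oxygen is reduced. Complexes I, III and IV pump protons across the inner mitochondrial membrane, and ATP synthase, called complex V, uses the returning protons to make ATP. Neurons of the cerebellum draw most of their ATP from this route, and several complex IV subunits exist in a widely expressed form and a form typical of muscle, heart, lung or testis.

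A level here is the log2 of a probe's intensity over the 75th percentile of its array, and differences are log2 fold changes from a linear model over all genes (limma), with their standard error (SE). Calls were made below an adjusted p of 0.05, after Benjamini-Hochberg adjustment over all genes of the comparison. Levels of different genes are not compared, because each comes from its own probe. Comparisons in the Derlin-1 line are means of the numbered and lettered series, made within slides.

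On 2 arrays some genes went against the pattern of the label. Derl2, the gene deleted in the Derlin-2 line, was at 1.72 on the first vehicle KO array of that line, against 1.4 to 1.58 in the 4 controls and 0.18 to 0.48 in the other 3 KO arrays; it is written below as the array labelled KO vehicle 1. The probe of Derl1 gave overlapping levels in Derlin-1 KO and control arrays (log2 fold change -0.33, SE 0.15, adjusted p 0.178 in limma, without 4PBA), so those labels could not be checked on the targeted gene. The lettered array labelled KO 4PBA b lay with the controls in genes that were high on the other Derlin-1 KO arrays: Derl3, a related gene, was at -2.27 there and between -0.63 and 0.37 on the other 7. On the array labelled KO vehicle 1 of the Derlin-2 line Derl3 was at -1.85. That was above the 4 controls of the line (-3.03 to -2.75) and near its 4PBA KO arrays (-1.93 and -1.96). On that array Derl3 thus lay with the label and Derl2 did not. Markers of granule neurons and of Purkinje cells, the defining neurons of the cerebellum, were measured for 10 of 10 and 10 of 10 genes.

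Upstream sequence was examined because many members were lower together in Derlin-1 KO arrays. RefSeq promoter windows (GRCm38.p6) were found for 68 of 84 members, and the 250 bases before the start were searched on both strands. The letters GCATGCGC, the core of the site of nuclear respiratory factor 1 (NRF1), stood in 8 of 68 members (11.8%) and in 2.56% of all 27025 genes with a window. The letters CCGGAAG, recognised by the ETS factor GABPA, stood in 12 of 68 members (17.6%) and in 7.83% of all genes. The letters AAGATGGCG of YY1 stood in 1 member, Atp5j (1.47%, against 0.71% of all genes), and TGATGNAA, a composite of ATF4 and C/EBP, in 0 members (3.91% of all genes). Of the 24 members called lower below, 20 had a window, and 4 of these (20%) held the letters of NRF1, GABPA or YY1, against 18 of 68 members (26.5%) and 10.5% of all genes. A match is a description of these letters only. The genes with a window were not limited to the 16935 tested here, so the shares are not matched for level. The 4 are shown with the matches in capitals, 5′ to 3′ on the gene's strand, ending at the base before the start. Ndufa11 (chr17:56717512-56717761, plus strand) and Atp5k (chr5:108434400-108434649, minus strand) hold the NRF1 letters on both strands, overlapping. Cox6b1 (chr7:30626115-30626364, minus strand) holds the GABPA letters on the other strand, 28 bases before the start, and Uqcr11 (chr10:80406822-80407071, minus strand) holds them on its own strand, 66 bases before.
Ndufa11: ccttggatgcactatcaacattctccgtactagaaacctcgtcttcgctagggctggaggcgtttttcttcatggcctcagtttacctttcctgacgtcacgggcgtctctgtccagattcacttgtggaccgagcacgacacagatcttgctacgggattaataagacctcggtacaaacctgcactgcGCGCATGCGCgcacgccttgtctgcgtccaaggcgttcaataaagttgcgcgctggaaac
Atp5k: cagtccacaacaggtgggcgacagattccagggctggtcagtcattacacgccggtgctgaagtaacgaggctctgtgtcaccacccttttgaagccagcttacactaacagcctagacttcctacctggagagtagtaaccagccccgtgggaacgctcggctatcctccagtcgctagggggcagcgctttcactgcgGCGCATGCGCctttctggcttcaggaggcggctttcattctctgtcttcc
Cox6b1: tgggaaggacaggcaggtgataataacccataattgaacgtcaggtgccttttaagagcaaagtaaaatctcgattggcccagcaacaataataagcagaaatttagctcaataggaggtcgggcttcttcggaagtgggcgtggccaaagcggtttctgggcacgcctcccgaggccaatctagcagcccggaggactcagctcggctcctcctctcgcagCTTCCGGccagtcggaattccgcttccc
Uqcr11: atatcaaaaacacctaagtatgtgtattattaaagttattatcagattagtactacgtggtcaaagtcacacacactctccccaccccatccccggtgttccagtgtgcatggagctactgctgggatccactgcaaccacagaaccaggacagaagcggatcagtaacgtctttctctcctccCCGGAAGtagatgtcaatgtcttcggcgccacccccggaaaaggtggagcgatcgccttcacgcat

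Cox6a2 was the member with the largest change. It encodes the heart and skeletal muscle form of subunit 6A of cytochrome c oxidase, while Cox6a1 encodes the widely expressed form. In the numbered series its level was -1.44 and -1.43 in vehicle controls and 2.56 and 2.19 in the KO arrays. The untreated lettered controls had -0.55 and -1.43, and the untreated KO arrays 2.65 and 2.62. The groups did not overlap in either series. The difference was 3.72 (SE 0.53, limma adjusted p 0.00242), a 13.2-fold rise (3.81 in the numbered series, 3.63 in the lettered). Its partner Cox6a1 went the other way without passing the test: 8.04 and 8.16 in numbered controls, 7.97 and 7.95 in KO arrays, 8.19 and 7.87 in lettered controls, and 7.64 and 7.71 in KO arrays. That difference was -0.25 (SE 0.09, adjusted p 0.11).

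**Figure D1:**
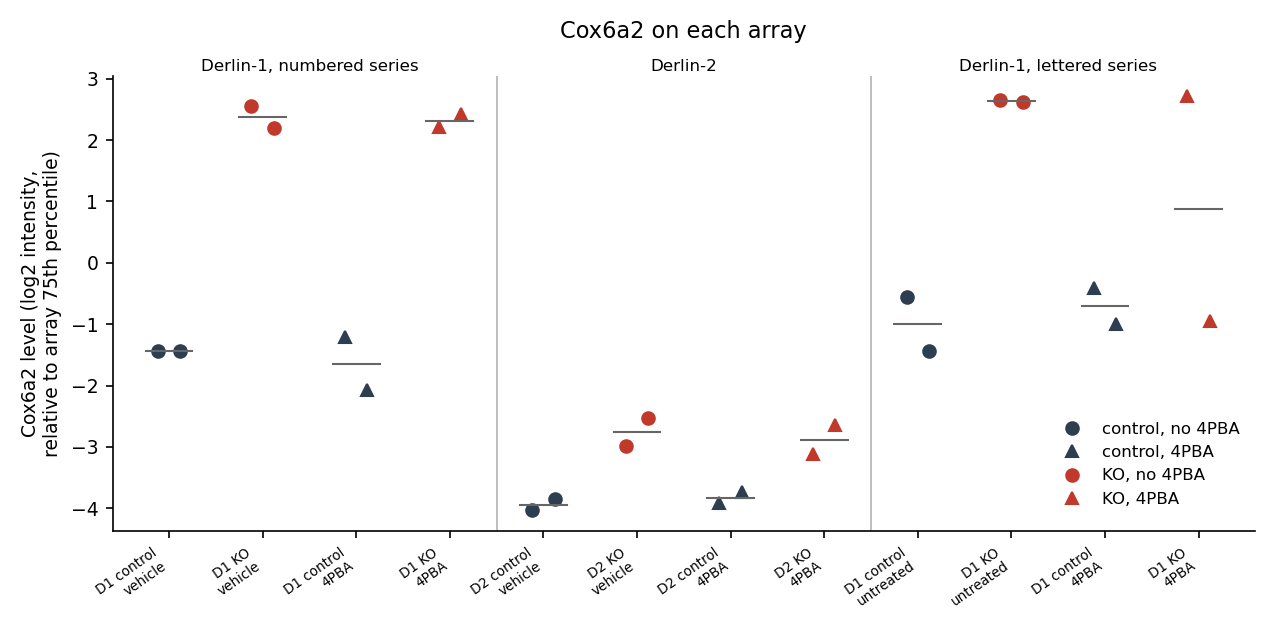
Level of Cox6a2 (log2 intensity over the 75th percentile of the array) on each of the 24 arrays by group; points are arrays, bars are means of 2 arrays, colours give genotype and triangles 4PBA. Derlin-1 KO arrays lie between 2.19 and 2.71 except array b of the lettered 4PBA group at -0.95, and Derlin-2 KO arrays lie between -3.11 and -2.52.

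With 4PBA the numbered Derlin-1 controls had Cox6a2 levels of -1.21 and -2.08 and the KO arrays 2.21 and 2.42. In the lettered series the controls had -0.41 and -0.99, and the KO arrays 2.71 (a) and -0.95 (b). Array b thus lay among the controls, and every other Derlin-1 KO array lay above all controls. The difference with 4PBA was 2.77 (SE 0.53, adjusted p 0.0892) with all arrays and 3.69 (SE 0.25, adjusted p 3.49e-06) without array b. Leaving out array a in its place gave 1.85 (SE 0.25, adjusted p 0.00986). In Derlin-1 KO mice the difference between 4PBA and no 4PBA was -0.91 (SE 0.53, adjusted p 0.802), and 0.01 without array b. Without array a it was -1.82 (adjusted p 0.00338), and the difference between the KO effects with and without 4PBA was then -1.87 (adjusted p 0.0484), so these values turn on a single array.

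On the Derlin-2 slide Cox6a2 was low on every array. Vehicle controls had -4.03 and -3.85, vehicle KO arrays -2.98 and -2.52, 4PBA controls -3.92 and -3.74, and 4PBA KO arrays -3.11 and -2.65. The KO arrays lay above the controls in both treatments without overlap, including the array labelled KO vehicle 1. The differences of 1.19 (SE 0.75, adjusted p 0.75) with vehicle and 0.95 (SE 0.75, adjusted p 1) with 4PBA did not pass the test, whose SE comes from the spread over all 24 arrays. Fitted on the arrays of the compared groups alone, they were 1.19 (adjusted p 0.312) and 0.95 (adjusted p 0.61). The Derlin-1 numbered vehicle effect exceeded the Derlin-2 vehicle effect by 2.62 (SE 1.07, adjusted p 0.387). Without array a or without array b of the lettered 4PBA KO group, which take no part in that difference but widen the spread, it was 2.62 with an SE of 0.45 and an adjusted p of 0.0187, and the Derlin-2 differences without array b had adjusted p of 0.263 (vehicle) and 0.741 (4PBA).

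The other isoform pairs held no call for the tissue form. Cox8a, the widely expressed subunit 8, is described below, while Cox8b, its heart and muscle form, varied between -2.97 and -0.54 over all arrays and differed by 0.1 (SE 0.47, adjusted p 0.917) in Derlin-1 KO without 4PBA. Cox7b2, a testis form of subunit 7B, was at -1.64 and -2.04 in numbered vehicle controls and -2.48 and -2.63 in KO arrays. On the lettered slide it was at -2.73 and -3.23 in controls and -3.54 and -3.85 in KO arrays. The groups did not overlap on either slide, and the difference of -0.71 (SE 0.28, adjusted p 0.123) missed the threshold. Its widely expressed partner Cox7b was at -0.26 (adjusted p 0.0776). Cox7a1 (muscle), Cox6b2 (testis) and Cox4i2 (lung) differed by -0.16, -0.22 and -0.17, with adjusted p of 0.341, 0.329 and 0.315. Ndufa4l2, the paralogue of Ndufa4, was at 0 (SE 0.09, adjusted p 0.99).

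Markers of skeletal or heart muscle were read beside Cox6a2, from a list that also holds the members Cox7a1 and Cox8b. Of 13 listed genes 10 were tested, 8 lay above 0 with a median of 0.28, Ckm, Myh1 and Myh2 were not well above background on both arrays of any group, and 0 of the 10 were called in Derlin-1 KO without 4PBA. The summed level of the 10, in multiples of the array's 75th percentile, was 4.25 to 4.49 in numbered vehicle controls and 4.36 to 4.95 in KO arrays. On the lettered slide it was 5.32 to 6.53 in controls and 4.76 to 5.37 in KO arrays, so the sums overlapped on both slides.

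Over the 24 arrays the genes with levels most like Cox6a2, by Pearson correlation as a description, were Atf5 (0.97), Tyrobp (0.96), Slc7a3 (0.96), Eif4ebp1 (0.95) and Lrrtm1 (0.94). Atf5 is a stress-responsive transcription factor, Tyrobp a microglial signalling adaptor, Slc7a3 an amino acid transporter and Eif4ebp1 a translation repressor. The arrays share the genotype split and the slides. Within the Derlin-2 slide alone the correlations were 0.84 for Atf5, 0.81 for Slc7a3, 0.58 for Eif4ebp1, 0.14 for Lrrtm1 and 0 for Tyrobp.

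Without 4PBA, 24 of 83 members fell in Derlin-1 KO arrays and 1, Cox6a2, rose. With only the arrays of the groups compared in the fit, 0 members were called lower and Cox6a2 alone higher, with 4.29% of all genes called and 79 members below 0. Of all 16935 genes tested 5.37% were called lower and 5.26% higher. The differences were small: the median over the 24 was -0.32, Atp5o fell by 15.7% and Cox8a fell by 25.2%. Below 0 lay 79 of 83 members (95.2%), against 51.2% of all genes, and the median was -0.24 over members and -0.01 over all genes. In 56 of 83 members every KO array lay below every control array of its slide in both series, against 12.4% of all genes. At an unadjusted p under 0.05 there were 52 of 83 members, against 26.7% of all genes. These are whole-tissue values, in which fewer cells of a type and less RNA per cell cannot be told apart.

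**Figure D2:**
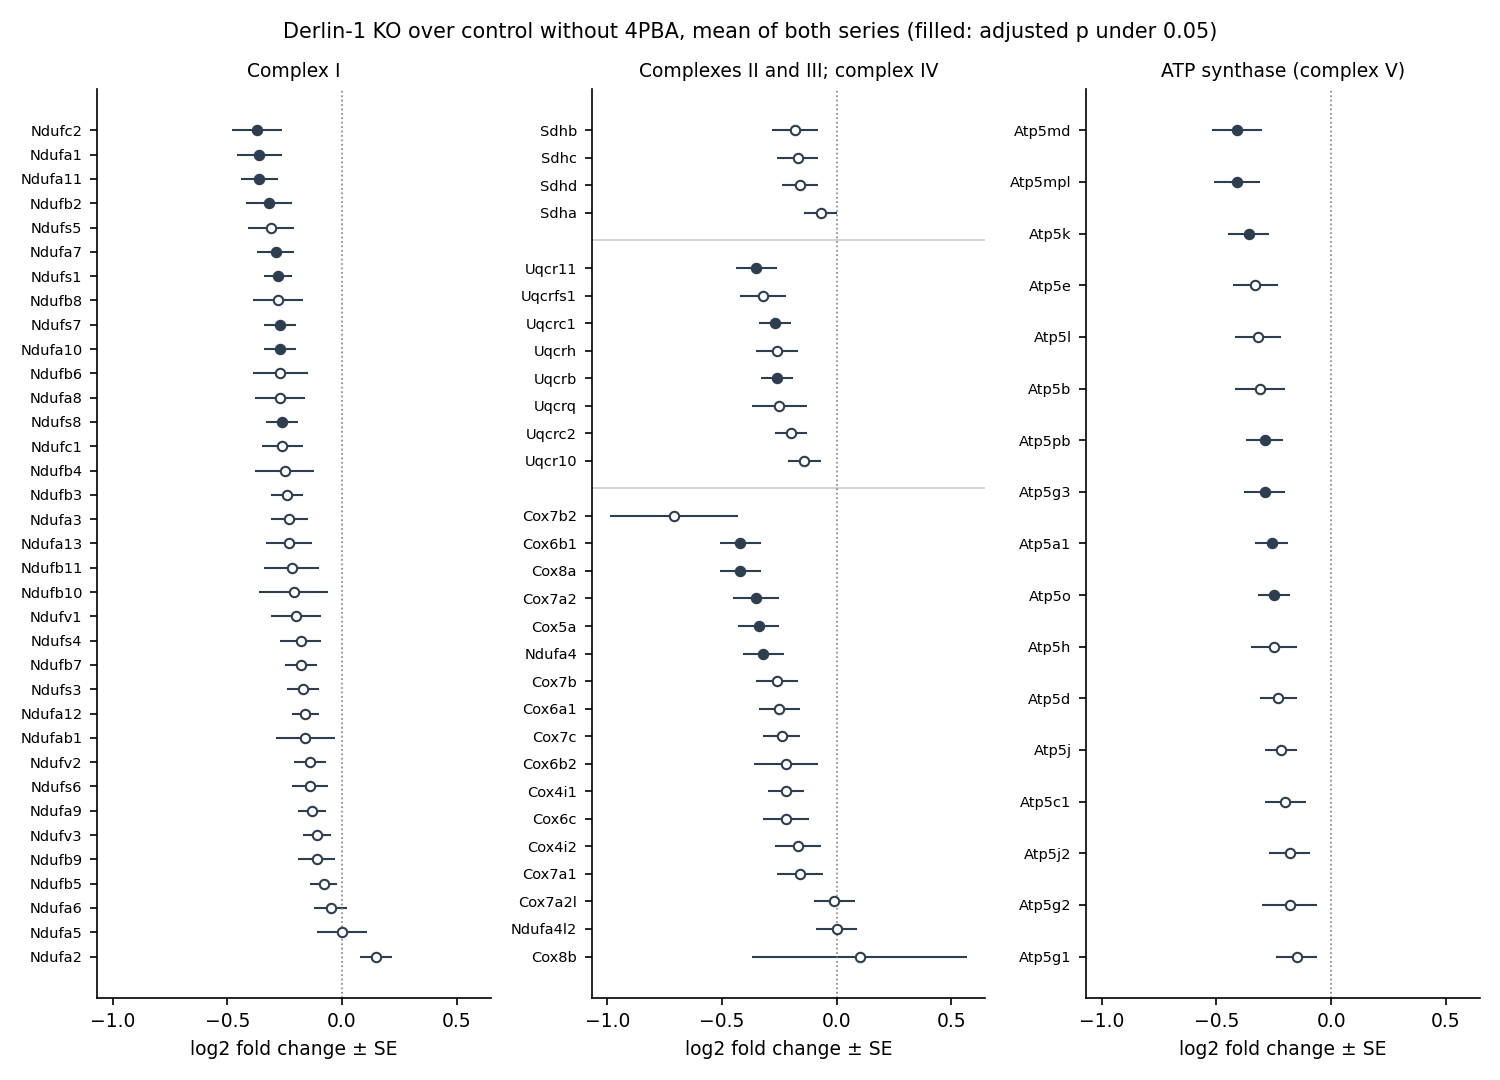
Log2 fold change of 81 members (Cox6a2 and 1 other not drawn) in Derlin-1 KO over control without 4PBA, mean of both series, by complex; bars are the SE from limma and filled points were called. The 3 panels hold complex I, complexes II to IV and ATP synthase, and Ndufa2 at 0.15 is the highest complex I subunit.

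Complex I takes electrons from NADH. Of its 36 measured subunits 9 fell and none rose, with a median of -0.23. The core, which carries the flavin and the iron-sulphur clusters, had 3 of 7 called: Ndufs1, Ndufs7 and Ndufs8. Ndufs1, the largest subunit and a carrier of iron-sulphur clusters, was at 4.5 and 4.48 in numbered controls and 4.3 and 4.3 in KO arrays. The lettered controls had 4.86 and 4.74 and the KO arrays 4.36 and 4.52. Both KO arrays lay below both controls on each slide, and the difference was -0.28 (SE 0.06, adjusted p 0.0151). Ndufs7, another iron-sulphur protein, had 5.34 and 5.45 against 5.17 and 5.14 in the numbered series, and 5.86 and 5.68 against 5.42 and 5.51 in the lettered. The KO arrays of Ndufs7 lay below the controls in both, and the mean difference over both was -0.27 (SE 0.07, adjusted p 0.0256). For Ndufs8 the difference was -0.26 (SE 0.07, adjusted p 0.0344).

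Supernumerary subunits surround this core without taking part in catalysis. Of 29 measured, 6 fell: Ndufa1, Ndufa7, Ndufa10, Ndufa11, Ndufb2 and Ndufc2. Ndufa11, a membrane subunit whose upstream letters are shown above, had 2.71 and 2.72 in numbered controls and 2.46 and 2.45 in KO arrays. The lettered controls had 3.27 and 3.13 and the KO arrays 2.58 and 2.91. No KO array reached a control of its slide, and the difference was -0.36 (SE 0.08, adjusted p 0.0116). Ndufa10 had 3.87 and 3.87 in numbered controls and 3.69 and 3.65 in KO arrays, and 4.33 and 4.05 against 3.75 and 3.94 on the lettered slide. Its groups did not overlap either, with a difference of -0.27 (SE 0.07, adjusted p 0.0247). Ndufa1, Ndufa7 and Ndufb2 differed by -0.36, -0.29 and -0.32 (adjusted p 0.0336, 0.0275 and 0.0496). Ndufc2 had the lowest difference of complex I, -0.37 (SE 0.11, adjusted p 0.0417). Of the 36 subunits of complex I 35 lay below 0. The exception was Ndufa2, at 0.15 (SE 0.07, adjusted p 0.209) and not called. Next to it Ndufa5 was at 0 after rounding and Ndufa6 at -0.05.

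Complex II, succinate dehydrogenase, is the only complex encoded wholly in the nucleus and also part of the citric acid cycle. None of its 4 subunits was called, and none of the 4 had an unadjusted p under 0.05. The flavoprotein Sdha was at -0.07 (SE 0.07, adjusted p 0.528), the iron-sulphur protein Sdhb at -0.18 (SE 0.1, adjusted p 0.267), and the membrane anchors Sdhc and Sdhd at -0.17 and -0.16 (adjusted p 0.256 and 0.237). Sdha had 4.34 and 4.27 in numbered controls and 4.26 and 4.34 in KO arrays, which overlap. Sdhb, Sdhc and Sdhd were lower on KO a (4.98, 3.02 and 3.89) than on either lettered control, the lowest of which were 5.13, 3.23 and 4.15. On KO b Sdhd (4) also lay below both controls, but Sdhb and Sdhc (5.16 and 3.28) lay between them, so those 2 overlap on that slide. The second probe of Sdha gave 0.04, the only case among 17 members with more than 1 kept probe in which the probes differed in sign.

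Complex III passes electrons from ubiquinol to cytochrome c. Of its 8 subunits 3 fell, with a median of -0.26: the core protein Uqcrc1, and Uqcrb and Uqcr11. Uqcrc1 had 4.76 and 4.67 in numbered controls against 4.52 and 4.49 in KO arrays. On the lettered slide it had 5.09 and 4.87 against 4.59 and 4.69. The KO arrays were the lower ones on both slides, with a difference of -0.27 (SE 0.07, adjusted p 0.0245). Uqcr11, a small subunit, had 5.85 and 5.83 against 5.63 and 5.66, and 6 and 5.7 against 5.2 and 5.48, again without overlap (-0.35, SE 0.09, adjusted p 0.0304). Uqcrb differed by -0.26 (SE 0.07, adjusted p 0.0399). The Rieske protein Uqcrfs1 was at -0.32 (SE 0.1, adjusted p 0.0554), just outside the threshold.

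Complex IV reduces oxygen. Of its 10 widely expressed nuclear subunits 5 fell, Cox5a, Cox6b1, Cox7a2, Cox8a and Ndufa4, and the median over the 10 was -0.29. Cox8a, a small membrane subunit, was at 7.68 and 7.68 in numbered controls and 7.37 and 7.38 in KO arrays. The lettered slide gave 7.66 and 7.46 in controls and 6.92 and 7.13 in KO arrays. The 4 KO arrays lay below their controls, and the difference of -0.42 (SE 0.09, adjusted p 0.0116) corresponds to an intensity that fell by 25.2%. Cox6b1, which faces the intermembrane space, had 2.97 and 3 against 2.65 and 2.69 in the numbered series. It had 3.24 and 2.94 against 2.45 and 2.68 in the lettered series, and a difference of -0.42 (SE 0.09, adjusted p 0.0118). Cox7a2, the widely expressed subunit 7A, had 5.84 and 5.68 against 5.6 and 5.52, and 5.91 and 5.78 against 5.2 and 5.49 (-0.35, SE 0.1, adjusted p 0.0334). Ndufa4, first named as a complex I protein and now counted with complex IV, had 5.68 and 5.66 against 5.51 and 5.4, and 5.19 and 5.11 against 4.66 and 4.77 (-0.32, SE 0.09, adjusted p 0.0355). In neither did a KO array reach a control of its slide. Cox5a, which binds the matrix side, differed by -0.34 (SE 0.09, adjusted p 0.0282). Cox4i1, the main form of subunit 4, was at -0.22 (SE 0.08, adjusted p 0.0992). Cox7a2l, which joins complexes III and IV into supercomplexes and is no subunit of complex IV alone, was at -0.01 (SE 0.09, adjusted p 0.955).

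In ATP synthase 7 of 17 members fell and all 17 lay below 0, with a median of -0.26. Of the 5 members of the catalytic F1 part 1 fell, Atp5a1, the alpha subunit (-0.26, SE 0.07, adjusted p 0.039). The beta subunit Atp5b was at -0.31 (SE 0.11, adjusted p 0.0887). Of 12 members of the stalk and membrane part 6 fell: Atp5g3, Atp5k, Atp5md, Atp5mpl, Atp5o and Atp5pb. Atp5mpl, a small membrane subunit, had 5.71 and 5.58 in numbered controls and 5.36 and 5.31 in KO arrays. The lettered controls had 5.35 and 5.19 and the KO arrays 4.62 and 4.88. No array overlapped, and the difference was -0.41 (SE 0.1, adjusted p 0.0171). Atp5md, another small membrane subunit, had 6 and 5.92 against 5.75 and 5.65, and 5.9 and 5.62 against 5.06 and 5.34 (-0.41, SE 0.11, adjusted p 0.0276). Atp5k, subunit e of the membrane part, had 5.9 and 5.96 against 5.8 and 5.64, and 5.97 and 5.76 against 5.2 and 5.53 (-0.36, SE 0.09, adjusted p 0.0256). The KO arrays of both were below their controls on each slide. Atp5pb and Atp5o, parts of the outer stalk, differed by -0.29 and -0.25 (adjusted p 0.0367 and 0.0414). Of the 3 genes for the ring-forming c subunit, which encode the same mature protein, Atp5g3 fell by 0.29 on the log2 scale (SE 0.09, adjusted p 0.0492), while Atp5g1 was at -0.15 (adjusted p 0.317) and Atp5g2 at -0.18 (adjusted p 0.347). The difference between the 3 genes was not tested. The call of Atp5g3 was lost in 16 of 21 alternatives, with adjusted p from 0.0161 to 0.703, the authors' series table among them (0.0578). Calls in other complexes and in this one were lost about as often. The number was 16 for Ndufb2, 15 for Ndufc2 and Uqcrb, and 14 for Atp5a1, Atp5o and Ndufa4. At the other end it was 3 for Cox8a and Ndufa11.

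Most differences were smaller in the numbered series, which compared vehicle arrays, than in the lettered series, which compared arrays naming no injection. The median over members was -0.13 in the numbered series, with 74 of 83 members below 0, and -0.35 in the lettered series, with 80 below 0. In 74 members both lay below 0, and in 82 of 83 the lettered difference was the lower. The median of the lettered minus the numbered difference was -0.21, and its size turned on single lettered arrays. It was -0.12 without untreated KO a, -0.31 without KO b, -0.12 without untreated control a and -0.34 without control b. In the numbered series alone 0 members were called by limma (2 of all genes were) and 6 had an unadjusted p under 0.05. The lettered series alone gave 7 calls, Cox6a2 and 6 lower members, with 3.54% of all genes called. Across the 82 members without Cox6a2 the differences of the series had a Pearson r of 0.69 and a Spearman rho of 0.58, as a description over genes that share arrays. No member was called in the test of the difference between the series, where 0.0059% of all genes were. There 1 member had an unadjusted p under 0.05, against 3.71% of all genes.

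**Figure D3:**
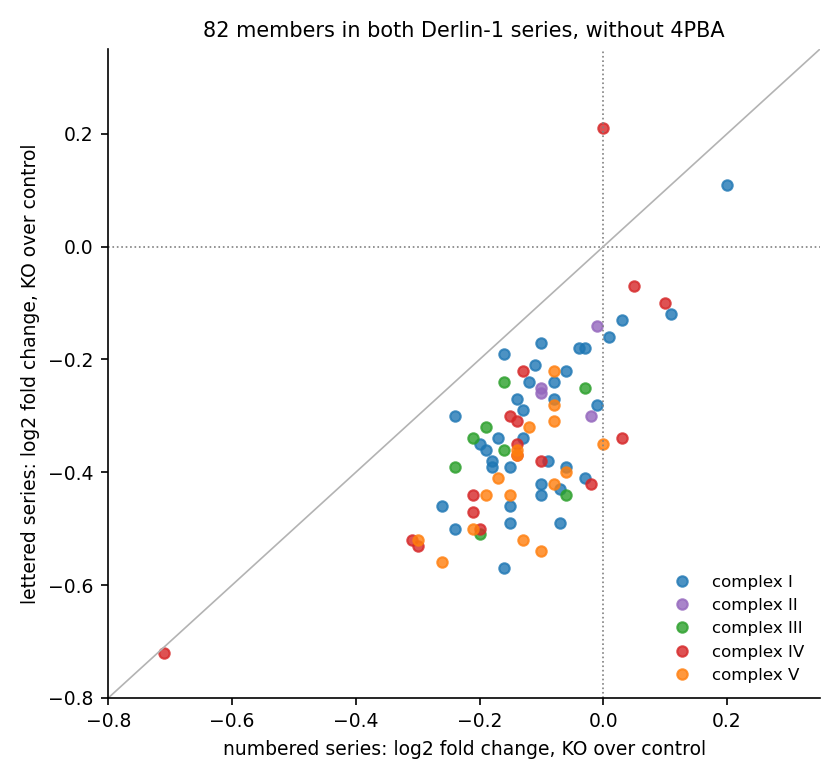
Log2 fold change of KO over control without 4PBA in the numbered series (x axis) and the lettered series (y axis) for 82 members coloured by complex; the grey line marks equal values. Points gather in the lower left below the line, from medians of -0.13 and -0.35.

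The arrays of the lettered slide also differed among themselves. Relative to the mean of the slide's untreated controls, the median over members was 0.11 on untreated control a and -0.11 on control b, -0.45 on KO a and -0.26 on KO b. The 4PBA arrays had 0.14 and -0.19 in controls and -0.25 and -0.15 in KO mice. On the numbered slide the vehicle controls had -0.01 and 0.01 and the KO arrays -0.12 and -0.12. Members moved together on single arrays. Below the mean of the untreated controls lay 3 of 82 members on lettered untreated control a and 79 on control b. It was 9 on lettered 4PBA control a and 77 on control b. The standard deviation of the members' median between replicate arrays was 0.09. Within each pair of lettered arrays the one with the higher 75th percentile of intensity had the lower median, which did not hold across groups. The percentile was 956 and 1080 in untreated controls, 1170 and 1030 in KO arrays, 896 and 1110 in 4PBA controls, and 1110 and 890 in 4PBA KO arrays. With its logarithm as a covariate 26 members were called and the median was -0.21.

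**Figure D4:**
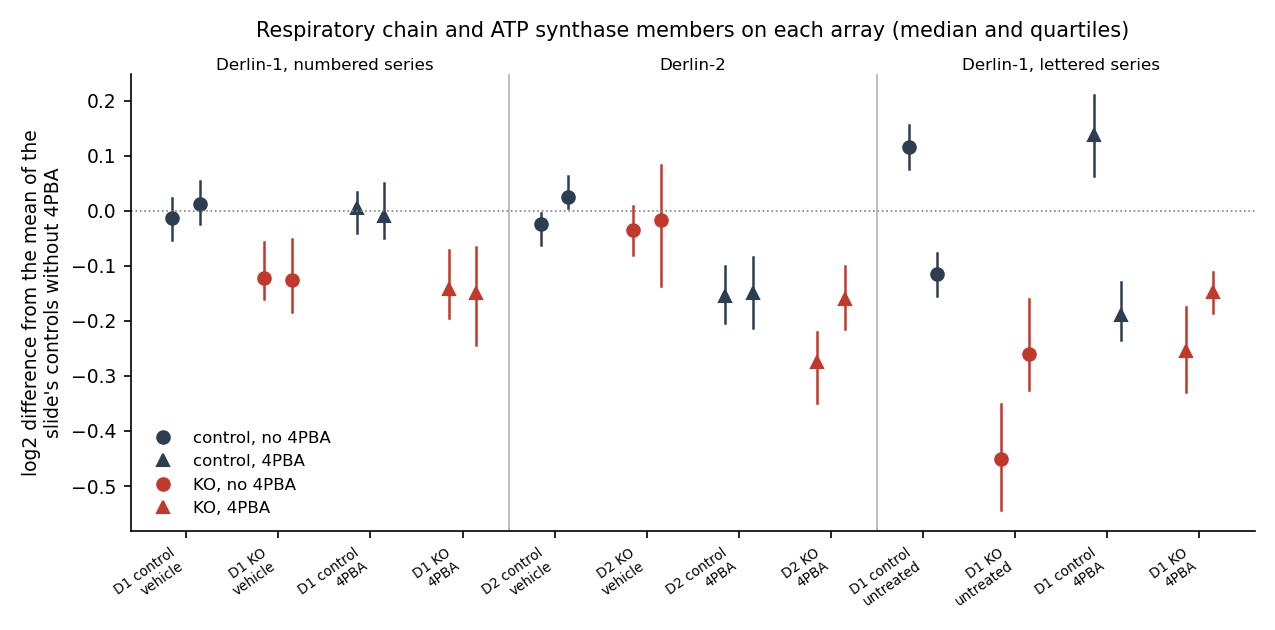
Median (point) and quartiles (line) over 82 members (81 on Derlin-2 KO 4PBA 2; Cox6a2 not drawn) of the log2 difference from the mean of the slide's controls without 4PBA, for each of 24 arrays by group. Numbered vehicle KO arrays lie at -0.12, and lettered untreated KO arrays at -0.45 and -0.26.

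The number of calls rested on few arrays, while the direction of the averaged differences did not. The calls over all genes moved as well, from 10.6% with all arrays. Without the lettered untreated KO a only Cox6a2 was called (3.86% of all genes), and without KO b 40 members were (16.5%). The count was 3 without lettered untreated control a (5.8% of all genes) and 4 without numbered KO 2 (4.62%). It was 7 without each of numbered control 1, control 2 and KO 1 (7.1%, 5.9% and 5.68%). With each of the 24 arrays left out in turn, 77 to 80 of 83 members lay below 0. Members moved together on single arrays, as given above, so this is not a count of independent genes. The differences were smaller under normalizations that align the whole range of brightness: the median was -0.14 with 12 calls after quantile normalization (9.2% of all genes called) and -0.12 with 15 calls after cyclic loess (9.55%). Lowering each array by its median in place of the 75th percentile gave 14 calls (8.67% of all genes) and raised the share of lower genes among all calls from 50.6% to 62.3%.

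Cell type markers moved in the same comparison. Of 10 microglial markers 8 rose, with a median of 1.43, and their summed level was 13.8 to 14.9 in numbered controls and 29.1 to 29.2 in KO arrays, and 13.5 to 17.3 and 29.8 to 35.1 in the lettered series. Of 10 granule neuron markers 3 fell (Neurod1 -0.68, Gabra6 -0.76 and Grin2c -0.33), with a median of -0.25 and summed levels of 354 to 365 against 279 to 282, and 280 to 281 against 223 to 225. Of 9 markers of molecular layer interneurons 6 fell, with a median of -0.32, and 0 of 10 Purkinje markers were called, with a median of -0.06. The Purkinje sum was 898 to 922 against 918 to 923 in the numbered series and 769 to 882 against 697 to 733 in the lettered. Of 8 markers of astrocytes and Bergmann glia 1 rose, with a median of 0.13 and sums of 559 to 611 against 551 to 579, and 360 to 418 against 323 to 335. Both sums were thus lower without overlap in lettered KO arrays and overlapped in the numbered. Of 8 oligodendrocyte markers 0 were called. Their part in the members' differences was not tested.

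Other mitochondrial genes were read from lists. Of 46 tested genes for the assembly of the complexes 3 fell (Coa3 -0.38, Cox14 -0.3 and Sco2 -0.28), a share near the 5.37% of all genes, 30 lay below 0 and the median was -0.09. Of 13 tested genes of mitochondrial biogenesis 1 fell, Polrmt, the mitochondrial RNA polymerase (-0.29, SE 0.06, adjusted p 0.00755). Ppargc1a, Nrf1, Gabpa and Tfam were at 0.09, 0.17, 0.09 and -0.12, none called. Of 12 genes of the mitochondrial stress response 4 rose, among them Atf5 (1.31, SE 0.21, adjusted p 0.00324) and the chaperone Hspa9 (0.39, SE 0.08, adjusted p 0.0066), and 1 fell, the cochaperone Dnaja3 (-0.53, SE 0.13, adjusted p 0.0242).

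With 4PBA, 0 members were called by limma between Derlin-1 KO and control arrays, where 0.0472% of all genes were, and 28 of 83 had an unadjusted p under 0.05, against 12.8% of all genes. Again 79 of 83 members lay below 0, and the median was -0.16 (-0.02 over all genes), and it was -0.14 on the numbered and -0.17 on the lettered slide. In 11 members the KO arrays lay below the controls without overlap on both slides, against 3.99% of all genes. Cox6b1 was at -0.3 (SE 0.09, adjusted p 0.198) and Cox8a at -0.3 (SE 0.09, adjusted p 0.203). Cox8a had 7.69 and 7.66 in numbered 4PBA controls and 7.3 and 7.31 in KO arrays, and 7.67 and 7.31 against 7.12 and 7.4 in the lettered series, where the groups overlapped. Ndufc2 was at -0.34 (SE 0.11, adjusted p 0.214) and Cox7b2 at -0.42 (SE 0.28, adjusted p 0.585). By complex the median was -0.16 in I, -0.09 in II, -0.16 in III, -0.23 in IV and -0.17 in V. Without array b of the lettered 4PBA KO group Cox6b1 and Cox8a passed, at -0.37 (SE 0.1, adjusted p 0.0413 for Cox6b1 and 0.0375 for Cox8a), 2 members were then called lower and Cox6a2 higher, and 6.18% of all genes were called. In that group array a had a summed microglial level of 30.1 and a granule neuron sum of 210, and array b 13.1 and 283. The lettered 4PBA controls had 13.8 to 16.8 and 263 to 289. On the numbered slide the microglial sum was 14.8 to 15.2 in 4PBA controls and 24.7 to 29.2 in KO arrays. The granule neuron sum there was 324 to 345 and 263 to 275. The part of these markers in the members' differences was not tested.

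The difference between the Derlin-1 KO effects with and without 4PBA had 0 called members (0.0118% of all genes) and a median of 0.08. There 0 members had an unadjusted p under 0.05, against 2.67% of all genes. Within KO mice 0 members were called (0.0354% of all genes) for 4PBA and 0 had an unadjusted p under 0.05 (6.66% of all genes). Above 0 lay 76 of 83 members and below 0 lay 8.43%, against 53.2% of all genes below 0. The median over members was 0.06. That median was -0.03 in the numbered series and 0.14 in the lettered series, and over both it was 0.01 without the lettered untreated KO a. Ndufab1, the acyl carrier protein of complex I, had the largest value besides Cox6a2 in KO mice (0.17, SE 0.13, adjusted p 0.85), followed by Cox6b2 (0.15, SE 0.14, adjusted p 0.883). In Derlin-1 controls 4PBA gave a median of -0.02, 0 calls (0.0295% of all genes) and 0 members with an unadjusted p under 0.05 (2.1% of all genes). These 3 comparisons share arrays with those above.

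In Derlin-2 KO arrays with vehicle the members showed no common direction. The median was -0.03, 49 of 83 lay below 0, and in 23 the KO arrays lay below the controls without overlap, against 24.8% of all genes. By complex the median was -0.03 in I, 0.02 in II, -0.07 in III, -0.01 in IV and -0.01 in V. The members that fell in Derlin-1 KO had, for example, Cox8a levels of 7.73 and 7.92 in Derlin-2 controls and 7.76 and 7.77 in KO arrays, and Cox6b1 levels of 3.13 and 3.15 against 3.03 and 2.95. By limma 0 members were called (0.118% of all genes), and 1 had an unadjusted p under 0.05 (8% of all genes), Ndufv1, the NADH-binding subunit of complex I (0.44, SE 0.16, adjusted p 0.502). Ndufv1 had 5.65 and 5.53 in controls, 5.72 on the array labelled KO vehicle 1 and 6.34 on KO vehicle 2. Ndufv1 was at 0.74 without the array labelled KO vehicle 1, on which Derl2 was not low. Without KO vehicle 2 it was at 0.13, so the size of the difference turned on single arrays. The second probe of Ndufv1 gave no higher level on KO vehicle 2: it had 2.57 and 2.58 in controls and 2.53 and 2.47 in KO arrays.

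With 4PBA the Derlin-2 KO arrays had a median of -0.07, with 64 of 83 members below 0 (58% of all genes) and 0 called (0.136% of all genes). Without KO 4PBA 1 the median was 0 with 41 of 82 below 0, and without KO 4PBA 2 it was -0.13 with 75 of 83. In 31 members the KO arrays lay below without overlap, against 24.6% of all genes, and 3 had an unadjusted p under 0.05 (4.7% of all genes): Ndufa12 (-0.28, SE 0.09, adjusted p 0.686), Cox7b2 (1.11, SE 0.4, adjusted p 0.816; -2.35 and -1.61 in controls, -0.47 and -1.26 in KO arrays) and Ndufa4l2 (-0.29, SE 0.13, adjusted p 0.996). The difference between the Derlin-2 KO effects with and without 4PBA had 0 called members (0.0768% of all genes) and a median of -0.04. Of the members 2 had an unadjusted p under 0.05, against 5.15% of all genes. The numbered Derlin-1 vehicle effect minus the Derlin-2 vehicle effect had 0 called members (0.0354% of all genes) and a median of -0.09 (0.02 over all genes). Of the members 3 had an unadjusted p under 0.05, against 11.2% of all genes. Below 0 lay 65 of 83 members (78.3%), against 47% of all genes.

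On the Derlin-2 slide most members had lower levels with 4PBA in both genotypes, none of them called. In controls 78 of 83 lay below 0 (59.6% of all genes), with a median of -0.15 (-0.04 over all genes; -0.06 over members with the 75th percentile as a covariate), and in 66 the 4PBA arrays lay below the vehicle arrays without overlap, against 27.8% of all genes. By limma 0 were called (0.13% of all genes) and 7 had an unadjusted p under 0.05, against 5.16% of all genes. In KO mice 76 lay below 0 (62% of all genes), with a median of -0.18 (-0.06 over all genes), 63 did not overlap (33.2% of all genes), 0 were called (0.136% of all genes) and 17 had an unadjusted p under 0.05 (9.21% of all genes); leaving out KO vehicle 2 lowered the last count to 2. In KO mice the median was -0.03 after quantile normalization and -0.05 after cyclic loess. By complex the medians in controls and KO mice were -0.13 and -0.18 in I, -0.1 and -0.2 in II, -0.2 and -0.18 in III, -0.14 and -0.13 in IV, and -0.17 and -0.22 in V. In controls Cox7b2 was at -0.84 (SE 0.4, adjusted p 0.979) and Cox7a1 at -0.32 (SE 0.14, adjusted p 0.926). The arrays with 4PBA had fewer spots well above background on this slide, 57.7% to 62.9% against 63.5% to 66.9% with vehicle, and more outlier spots, 489 to 637 against 213 to 408. The summed level of 6 choroid plexus markers was 122 to 150 in vehicle controls, 30.4 to 79.7 in 4PBA controls, 115 to 237 in vehicle KO arrays and 157 to 212 in 4PBA KO arrays. Sums of Purkinje markers and of markers of astrocytes and Bergmann glia were lower with 4PBA without overlap in both genotypes, though 0 of their genes were called. Purkinje markers went from 891 to 902 down to 778 to 800 in controls and from 841 to 937 down to 703 to 770 in KO mice. Markers of astrocytes and Bergmann glia went from 542 to 592 down to 482 to 508, and from 532 to 549 down to 464 to 521. Other sums were lower without overlap as well. Granule neuron markers went from 357 to 363 down to 328 to 353 in controls and from 372 to 413 down to 331 to 346 in KO mice. Microglial markers went from 13.7 to 14 down to 12.9 to 13.1, and from 13.7 to 14.9 down to 12 to 12.3. Oligodendrocyte sums overlapped in controls (296 to 325 with vehicle, 290 to 341 with 4PBA). The part of any of these in the members' levels was not tested.

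**Figure D5:**
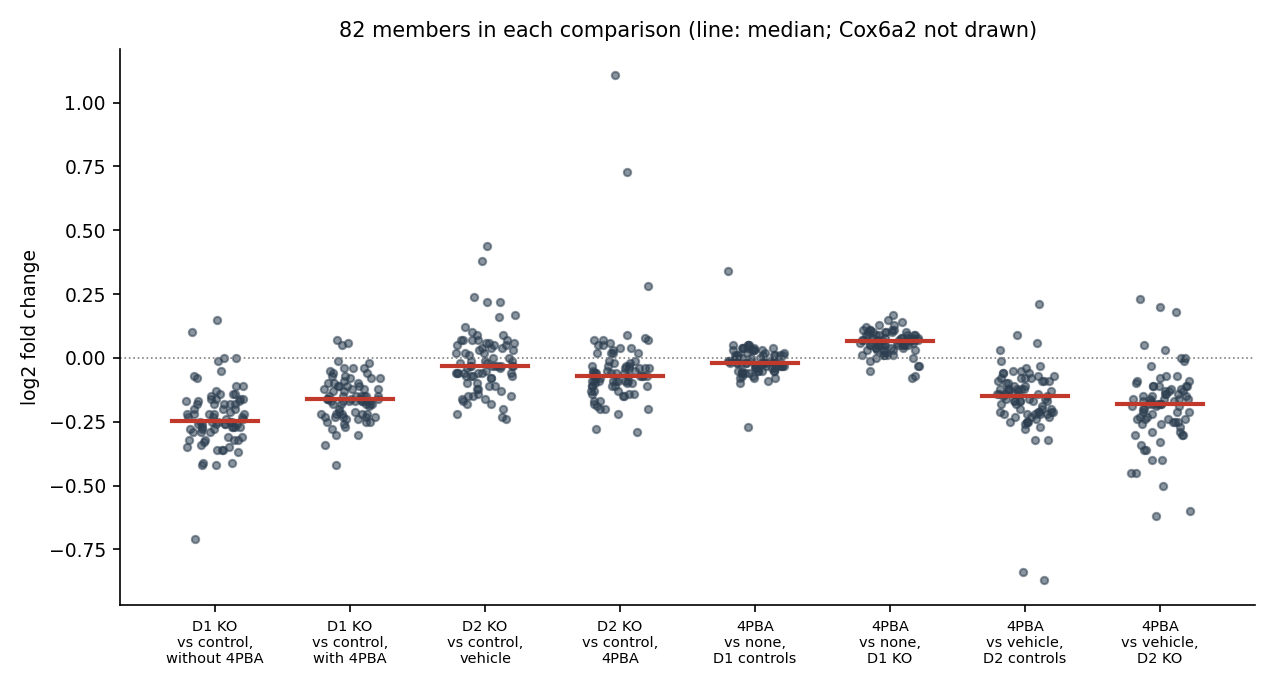
Log2 fold change of 82 members (points; Cox6a2 not drawn) in 8 comparisons, with the median as a line. The medians lie below -0.1 in Derlin-1 KO with and without 4PBA and under 4PBA on the Derlin-2 slide.

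Ndufb10, a supernumerary subunit of complex I, had the largest single difference of these. It was at 6.06 and 6.11 in Derlin-2 vehicle controls, 5.21 and 5.21 in 4PBA controls, 6.05 and 6.17 in vehicle KO arrays, and 5.03 and 5.95 in 4PBA KO arrays. Of the 4 arrays with 4PBA 3 lay far below all vehicle arrays and 1 just below them. The differences were -0.87 (SE 0.21, adjusted p 0.273) in controls and -0.62 (SE 0.21, adjusted p 0.352) in KO mice. Without the second 4PBA KO array, at 5.95, they were called, at -0.87 (SE 0.12, adjusted p 0.0162) and -1.08 (SE 0.14, adjusted p 0.00435); without the first the value in controls was the same and that in KO mice was -0.17 (adjusted p 0.997). With no filter on dim probes Ndufb10 in controls had an adjusted p of 0.0236, where 1279 genes were called in all. In the numbered Derlin-1 series Ndufb10 was at 5.96 and 6.04 with vehicle and 6.02 and 6 with 4PBA in controls, which overlap. In Derlin-2 KO mice Ndufa12 differed by -0.4 (SE 0.09, adjusted p 0.118), from 5.18 and 5.3 to 4.8 and 4.88. Ndufv1 and Atp5g2 differed there by -0.6 (SE 0.16, adjusted p 0.253) and -0.5 (SE 0.16, adjusted p 0.345), both high on the array labelled KO vehicle 2. Without the array labelled KO vehicle 1 these 2 differed by -0.91 and -0.83, and without KO vehicle 2 by -0.3 and -0.17, so their size turned on single arrays. The second probe of Ndufv1 had 2.53 and 2.47 with vehicle and 2.38 and 2.58 with 4PBA in KO mice, which overlap.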

How the data were processed

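Cy3-labelled cRNA made from 150 ng of total RNA was read with Agilent Feature Extraction 10.7.1.1, per the submitters' processing notes. The deposited value used was the processed signal of each spot, a linear intensity after the authors' background correction, per the file headers; no normalization between arrays is recorded. The deposited intensity values of the whole series served as an alternative.

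From these, log2 signals were lowered by each array's 75th percentile over non-control spots, outlier-flagged spots were treated as missing, and a probe was kept if the scanner rated it well above background on both arrays of some group. Symbols came from RefSeq transcripts (GRCm38.p6), and the brightest kept probe stood for a gene (16935 genes). limma 3.58.1 (lmFit, eBayes) in R 4.3.3 fitted 12 group means over 24 arrays, with 12 residual and 2.13 prior degrees of freedom. Tests were two-sided, with Benjamini-Hochberg adjustment and calls under 0.05. The code was tested on simulated data. The share of spots above background by the scanner's rating was 57.7% to 68.4%, the 75th percentile was 890 to 1170, and precision is limited by having 2 arrays per group.

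The members and gene lists were chosen with earlier results of these data known. Values per array are given for Cox6a2, called or dim isoforms with a partner, the called members with the smallest adjusted p or largest difference, and, where under 3 were called, the members with the largest difference; Uqcr11, Ndufa12 in the Derlin-2 line and the arrays left out in the report were chosen after they were seen. Alternatives were another background correction (normexp, offset 50, on median signals in place of the planned mean signals, not used here), normalization, filter, probe rule, block, fit and each array left out. 1 member is counted but not reported by name here.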

Additional observations from a re-analysis of the deposited data

How the results depend on the processing

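Within Derlin-1 KO without 4PBA the count of members called was 25, and 10.6% of all genes were called. The count, with the share of all genes, was 12 (9.2%) after quantile normalization, 14 (8.67%) with median centring, 13 (5.48%) with no filter on dim probes and 15 (9.55%) after cyclic loess. It was 1 (4.29%) with only the arrays of the groups compared, 0 (0.0118%) in the numbered series alone and 7 (3.54%) in the lettered alone. It was 31 (11%) with normexp, 29 (12.9%) with the filter on all 24 arrays, 23 (10.1%) in the authors' series table, 22 (9.11%) with the mean of probes and 26 (9.42%) with the 75th percentile as a covariate. Cyclic loess and the covariate were chosen after seeing the data. With 1 array left out it was 1 to 40, where the lone array is assumed to vary like the other groups. Differences between the 2 arrays of a group correlated across genes by -0.15 to 0.4 in 18 pairs of groups, 7 of them over 0.1, among these 5 of the 6 lettered pairs. No slide had every pair over 0.1, so the numbers were not taken to pair the arrays; with a replicate block the count was 18 (12.9%), and the block changed the call of no other count.

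The median was -0.14 (quantile), -0.12 (cyclic loess), -0.13 (numbered) and -0.35 (lettered), and -0.3 to -0.17 with an array left out. With 4PBA it was -0.07 after cyclic loess and -0.23 to -0.08 with an array left out; the count of 0 became up to 3. For Derlin-2 KO with vehicle the count was 0 to 1 and the median -0.07 to 0.01, and with 4PBA 0 to 0 and -0.13 to 0. For 4PBA in Derlin-1 controls the median was -0.1 to 0.07 with an array left out. In Derlin-1 KO mice it was -0.03 in the numbered series and 0.01 to 0.11 with an array left out, with a count of 0 to 1. In Derlin-2 controls it was -0.06 with the covariate and -0.19 to -0.12 with an array left out, and the count was 2 with no filter (1279 genes called in all, against 22) and 0 to 1 with an array left out (0.124% of all genes where 1). In Derlin-2 KO mice it was -0.03 (quantile), -0.29 (median centring), -0.05 (cyclic loess) and -0.24 to -0.13 with an array left out, and the count was 2 with no filter (1843 genes called in all, against 23) and 0 to 2 with an array left out (0.487% of all genes where 2, 0.309% where 1). The difference between the Derlin-1 KO effects with and without 4PBA had 0 to 1 calls with an array left out, and that between the Derlin-1 and Derlin-2 vehicle effects had 1 in the groups compared and 0 to 1 with an array left out. The cause of these shifts was not tested.

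Reversed values were of members not called in that comparison with all arrays. Sdha in Derlin-1 KO without 4PBA was 0.02 after cyclic loess, and 0.01 without lettered control a. Cox7b2 with 4PBA was 0 in the lettered series. Cox8b in Derlin-2 KO with vehicle was -0.23 to 0.98 with an array left out. For 4PBA in Derlin-1 controls Cox6a2 was -0.21 in the numbered series, and with an array left out Cox6a2 was -0.18 to 0.26, Cox7b2 -0.55 to 0.01 and Cox8b -0.05 to 0.73. For 4PBA in Derlin-1 KO mice Cox6a2 was -1.82 to 0.01 with an array left out, and the -1.82, without lettered 4PBA KO a, was called (adjusted p 0.00338). For 4PBA in Derlin-2 mice Cox6a2 was -0.03 (quantile) and -0.24 (covariate) in controls, and in KO mice 0.04 (covariate) and -0.36 to 0.1 with an array left out.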
